A study of Mus musculus with 23 samples.

Results

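The synaptic vesicle and release machinery of the hippocampus was followed as 34 named genes out of 39017 genes measured. The genes were taken by symbol from a list drawn up by function, covering vesicle proteins, fusion proteins, the active zone and vesicle recycling, and all 34 had a row in the tables of both genotypes. RNA was measured in hippocampi of 4 groups of 5 libraries each: mice labelled Nrsn2-KO after chronic social defeat stress (CSDS), control mice of that label, wild-type (WT) mice after CSDS and WT controls. Nrsn2 encodes neurensin 2, a small membrane protein of neurons, and CSDS is a mouse model of repeated social stress. Stressed mice were placed with an unfamiliar CD-1 aggressor for 5 min daily over 10 days and otherwise housed beside it across a perforated divider. The labels name neither strain, age nor sex, do not describe the knockout allele, and number the libraries of a group without saying whether each came from its own animal. The p-values therefore cover the variation among these libraries, which may be partly technical.

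A nerve terminal stores transmitter in small vesicles, which are filled by transporters, tethered by synapsins, docked and primed at the active zone, fused with the cell membrane by SNARE proteins and then recovered by endocytosis. Synaptotagmins sense the calcium that enters with an action potential and couple it to fusion, and complexins hold the SNARE complex ready. In the hippocampus most terminals release glutamate, loaded by the transporter VGLUT1, and a minority release GABA.

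The libraries held an estimated 25.65 to 55.71 M reads, and the 34 genes had from 178 to 76276 estimated reads in a median library. Nrsn2, the labelled target, was not lower in libraries labelled knockout: it stood at 34.1 RPKM (reads per kilobase of gene, scaled to library size) on average after CSDS and 31.2 RPKM in controls of that label, against 29.7 RPKM after CSDS and 29.1 RPKM in controls of WT. Log2 fold changes, knockout label over WT, were 0.10 ± 0.065 among controls (limma adjusted p = 0.437) and 0.20 ± 0.065 after CSDS (adjusted p = 0.127). These are levels of the whole gene and say nothing of the protein. Comparisons between genotypes therefore follow the labels alone, and they set values of separate tables side by side, whose libraries were on the same scale (99.64 to 100.23% of the median library in summed RPKM times exon length). The 3 libraries titled WT 9B, KO 11 and KO 10B are controls by title and CSDS by their treatment field. They are given below as libraries of conflicting label and are in no group, although the design text of the series, with 5 control and 6 to 7 CSDS libraries per genotype, has the same numbers as the treatment field. Control 10 of both genotypes had high Xist, at 48.2 RPKM in the library labelled knockout and 56.5 RPKM in WT, and low Ddx3y, a Y-linked gene. In CSDS libraries Xist did not exceed 0.062 RPKM. The controls of each genotype thus included a library of this pattern and the CSDS groups did not. The part of sex in the comparisons was not tested.

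The machinery was among the more abundant messages of the tissue. Its median level was 55.9 RPKM, against 5.98 RPKM over all genes with a mean of at least 0.5 RPKM. Above 100 RPKM stood 11 of the 34 genes, 18 lay between 10 and 100 RPKM and 5 lay below 10 RPKM. The top of the order was held by Slc17a7, the gene of VGLUT1, at 311 RPKM over 20 libraries, followed by the complexin gene Cplx2 at 246 RPKM and the SNARE gene Snap25 at 244 RPKM. Next came the vesicle membrane gene Syp at 190.3 RPKM, Cplx1 at 184 RPKM, the dynamin gene Dnm1 at 181 RPKM and the vesicle SNARE gene Vamp2 at 168 RPKM. At the low end were Erc1 at 6.26, Syn3 at 5.01, Syt2 at 4.13, Unc13c at 3.80 and Slc17a8, the gene of the transporter VGLUT3, at 0.920 RPKM. The order is a ladder of small steps: in 26 of 33 neighbouring pairs the ranges over the 20 libraries overlapped, so most neighbours cannot be ranked against each other. Between libraries these genes varied little, with a median coefficient of variation of 5.54% and 28 genes under 10%.

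**Figure D1:**
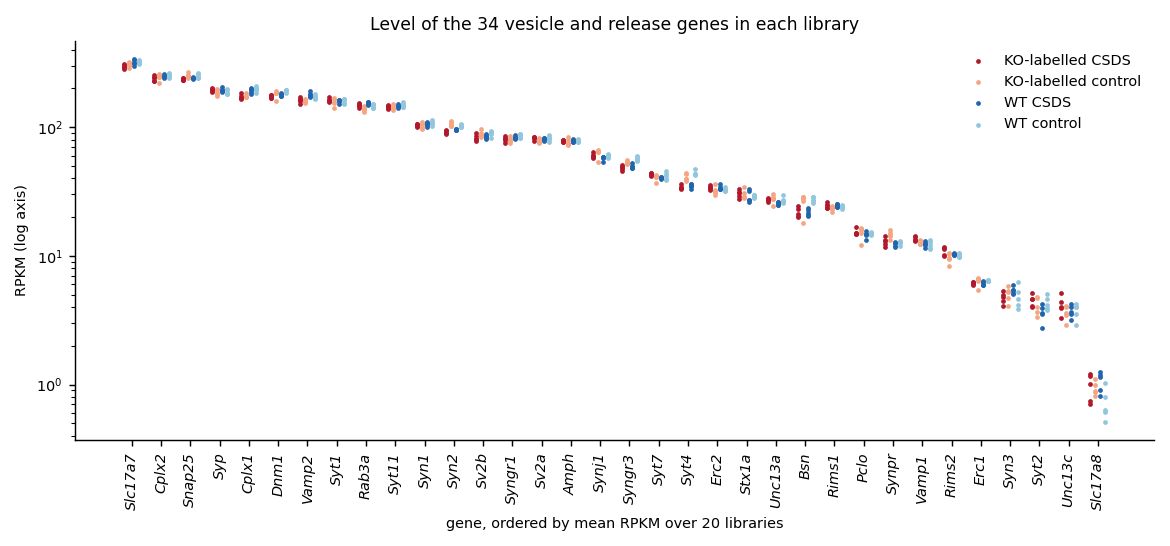
RPKM (vertical log axis) of the 34 genes, ordered by mean level, with a point for each library of 4 groups of 5 libraries. Levels run from over 300 RPKM for Slc17a7 to about 1 RPKM for Slc17a8, and the groups lie on top of each other for most genes.

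After CSDS a few genes of the machinery were lower and most did not pass the test. The lower ones included genes of a synaptotagmin (Syt4), a synapsin (Syn2) and a synaptogyrin (Syngr3) in both genotypes, and in WT the active zone scaffold gene Bsn and the dynamin gene Dnm1 as well. In libraries labelled knockout 3 of 34 genes passed limma's test at an adjusted p of 0.05, all lower, a share of 8.82%. Of all genes 15% were called there, 6.17% higher and 8.88% lower. In WT 5 of 34 passed, all lower, a share of 14.7%, where 22.4% of all genes were called, 9.88% higher and 12.5% lower. The share of lower members was thus near that over all genes in both genotypes, and no member was higher. Every CSDS library was below every control for 3 members in the knockout label and 4 in WT, as for 7.47% and 9.66% of all genes. The median log2 fold change of the 34 genes was 0.0097 for the knockout label and −0.026 in WT, beside −0.0067 for the knockout label and −0.0017 in WT over all genes. In bulk tissue fewer cells of a type and less RNA per cell cannot be told apart. The libraries of conflicting label were also added to the CSDS groups, as their treatment field has it. Then no member passed in libraries labelled knockout and 2 passed in WT, Syt4 and Syngr3. Over all genes 143 of 18243 then passed in the knockout label (2747 before), and 1240 of 18250 in WT (4093 before). With these libraries added to the control groups instead, as their titles have it, the counts went up. Then 5 members passed in libraries labelled knockout, all lower, and 6 in WT, 1 higher and 5 lower. Over all genes 3235 of 18243 passed in the knockout label and 4729 of 18250 in WT.

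**Figure D2:**
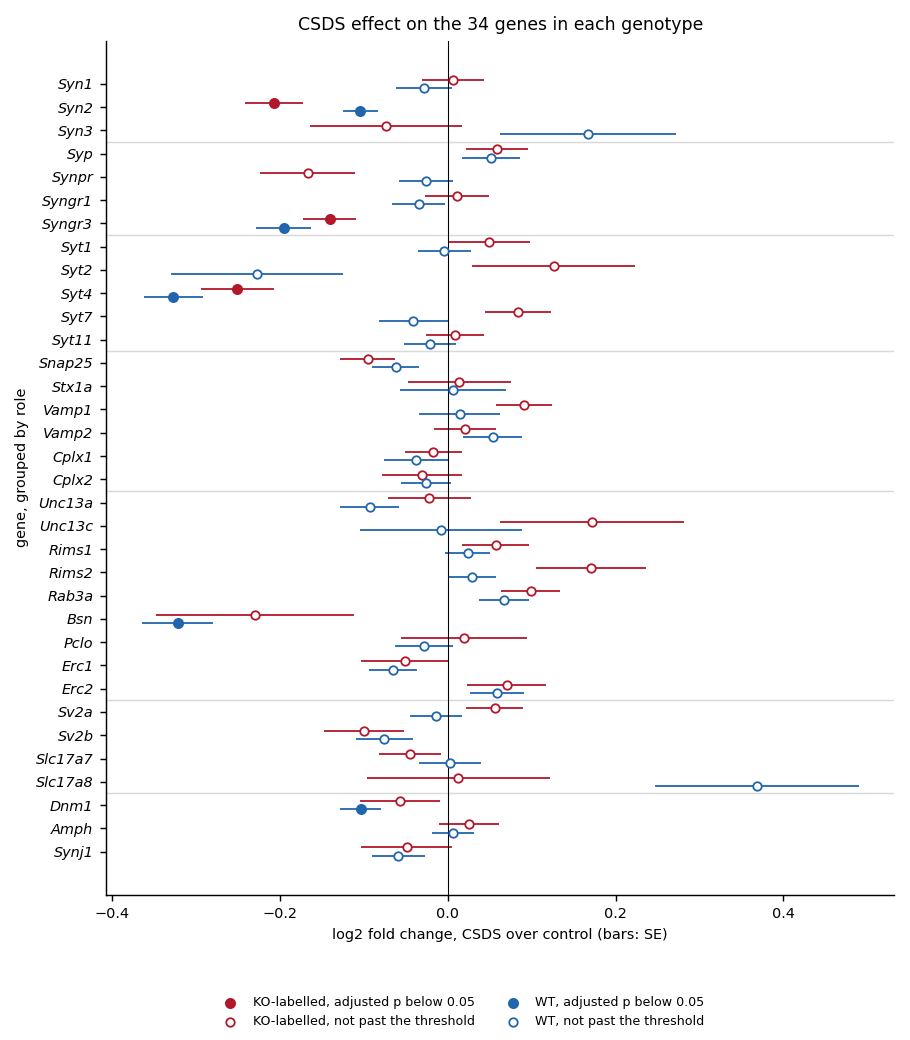
Log2 fold change of CSDS over control (horizontal axis, bars are SE) for the 34 genes, grouped by role down the page, with libraries labelled knockout in red above WT in blue. Filled points passed an adjusted p of 0.05 and are Syn2, Syngr3 and Syt4 in both genotypes and Bsn and Dnm1 in WT, all left of 0.

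The synapsins are phosphoproteins that tether vesicles to each other in the reserve pool. Syn2 stood at 87.9, 94.9, 90.1, 92.8 and 94.02 RPKM in knockout-labelled libraries after CSDS, against 109.9, 111, 106, 103 and 101 RPKM in their controls. In WT it stood at 95.2, 96.7, 94.3, 95.9 and 94.3 RPKM after CSDS, against 99.3, 105, 103, 103 and 101 RPKM in controls. In both genotypes every CSDS library was below every control. The log2 fold change was −0.21 ± 0.035 for the knockout label (limma adjusted p = 0.0045) and −0.10 ± 0.021 in WT (limma adjusted p = 0.00707). Libraries of conflicting label had 108, 107 and 103 RPKM in KO 10B, KO 11 and WT 9B, all within the control ranges of their genotype. Syn1, whose range overlapped that of Syn2, did not pass at 0.0060 for the knockout label and −0.029 in WT. Syn3, a scarce form, gave −0.073 ± 0.091 for the knockout label and 0.17 ± 0.10 in WT, neither past the threshold (in WT adjusted p = 0.0432 by limma without WT control 10). The exons of Syn3 share 14.1% of their length with Timp3 on the other strand, and the kit keeps no strand, so reads of both cannot be told apart there. Timp3 averaged 15.3 RPKM after CSDS against 15.8 RPKM in controls of the knockout label. In WT it averaged 18.4 RPKM after CSDS against 15.6 RPKM in controls, all above the level of Syn3.

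Tetraspan vesicle proteins cross the vesicle membrane 4 times and include synaptophysin (Syp), synaptoporin (Synpr) and the synaptogyrins. Syngr3 stood at 50.4, 48.8, 45.4, 48.9 and 47.1 RPKM in knockout-labelled libraries after CSDS, against 55.2, 51.9, 51.9, 53.1 and 53.3 RPKM in their controls. WT libraries had 48.2, 48.9, 49.7, 52.4 and 47.998 RPKM after CSDS, against 58.1, 59.6, 54.3, 55.3 and 56.05 RPKM in controls. Again no CSDS library reached the lowest control of its genotype. Libraries of conflicting label had 57.17, 54.21 and 54.18 RPKM of Syngr3 in KO 10B, KO 11 and WT 9B, above every CSDS library of their genotype. KO 10B was also above every control of its label, and WT 9B below every WT control. The log2 fold change was −0.14 ± 0.032 for the knockout label (limma adjusted p = 0.0162) and −0.20 ± 0.033 in WT (limma adjusted p = 0.00284). Synpr, a form of mossy fibre terminals and of some interneurons, gave −0.17 ± 0.056 for the knockout label (limma adjusted p = 0.0699) and −0.026 ± 0.032 in WT (adjusted p = 0.588). Without CSDS library 5 of the knockout label its adjusted p was 0.0401. It also passed there with the conflicting libraries placed by title, in a joint fit of the 20 libraries and without control 10 of that label. Syp and Syngr1 did not pass in either genotype, with log2 fold changes from −0.035 to 0.058. Exons of Syp share 16.8% of their length with the opposite-strand gene model Gm14703. That model averaged 238 RPKM after CSDS against 227 RPKM in controls of the knockout label, and 239 against 226 RPKM in WT.

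Synaptotagmins are membrane proteins with calcium-binding domains. Syt1 and Syt2 are the fast sensors of release, Syt7 a slower sensor, while Syt4 and Syt11 do not bind calcium in the way Syt1 does and act on other vesicles, such as those of neuropeptides. Syt4 had the largest fold change of the 34 genes past the threshold in each genotype. It stood at 33.7, 35.8, 33.3, 33.9 and 33.998 RPKM in knockout-labelled libraries after CSDS, against 43.4, 43.8, 39.5, 39.2 and 37.8 RPKM in their controls. In WT, values were 35.1, 36.2, 33.001, 34.9 and 35.8 RPKM after CSDS, against 43.4, 47.6, 43.3, 43.2 and 42.8 RPKM in controls. Groups of a genotype did not overlap. The log2 fold change was −0.25 ± 0.044 for the knockout label (limma adjusted p = 0.00544) and −0.33 ± 0.035 in WT (limma adjusted p = 0.000434), and the WT call held under all 18 alternative settings. Exons of Syt4 share 14.5% of their length with the opposite-strand gene model Gm26658, which averaged 11.4 RPKM after CSDS against 12.3 RPKM in controls of the knockout label, and 11.3 RPKM after CSDS against 14.0 RPKM in WT controls, and the reads of both cannot be told apart there. Conflicting libraries had 38.8, 42.5 and 41.8 RPKM of Syt4 in KO 10B, KO 11 and WT 9B, above every CSDS library of their genotype. WT 9B was also below every WT control.

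The other synaptotagmins did not pass. Syt1 gave 0.050 ± 0.049 for the knockout label and −0.0041 ± 0.031 in WT, and Syt11 gave 0.0087 ± 0.034 for the knockout label and −0.021 ± 0.031 in WT. Syt7 gave 0.083 ± 0.039 for the knockout label and −0.041 ± 0.041 in WT. Syt2, the form of fast-spiking interneurons, stood at 5.12, 4.01, 4.09, 4.59 and 4.64 RPKM in knockout-labelled libraries after CSDS, against 4.74, 3.65, 4.01, 4.76 and 3.32 RPKM in their controls. WT values of Syt2 were 3.95, 2.77, 3.55, 4.19 and 3.61 RPKM after CSDS, against 5.08, 3.91, 4.17, 4.60 and 3.77 RPKM in controls. The groups overlapped in both genotypes, at 0.13 ± 0.10 for the knockout label (limma adjusted p = 0.421) and −0.23 ± 0.10 in WT (adjusted p = 0.136).

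None of the 6 SNARE and complexin genes passed after CSDS in the main fit of either genotype. The SNAREs SNAP-25 (Snap25), syntaxin 1A (Stx1a) and the synaptobrevins (Vamp1, Vamp2) pull the membranes together, and complexins clamp and then promote fusion. Snap25 stood at 230.2, 239, 231, 241 and 234 RPKM in knockout-labelled libraries after CSDS, against 249.98, 267, 241, 252 and 246 RPKM in their controls. In WT it stood at 244, 240.1, 239, 239 and 237 RPKM after CSDS, against 259, 248.6, 242, 261 and 242 RPKM in controls. Groups of the knockout label overlapped narrowly, at 240.8 RPKM in the highest CSDS library and 240.7 RPKM in the lowest control, and WT groups overlapped. The log2 fold change was −0.10 ± 0.033 for the knockout label (limma adjusted p = 0.0735) and −0.062 ± 0.028 in WT (adjusted p = 0.131). For the knockout label Snap25 passed as lower with the conflicting libraries placed by title. It also passed in a joint fit of the 20 libraries and without control 10 of that label. Vamp1, another synaptobrevin, stood at 14.1, 13.05, 13.3, 13.2 and 13.9 RPKM in knockout-labelled libraries after CSDS, against 13.3, 12.4, 12.4, 12.95 and 12.3 RPKM in their controls. In WT it stood at 12.1, 11.5, 12.5, 13.1 and 12.3 RPKM after CSDS, against 12.8, 11.2, 12.1, 13.3 and 11.6 RPKM in controls. Its groups overlapped in both genotypes. It gave 0.091 ± 0.033 for the knockout label (limma adjusted p = 0.0929) and 0.014 ± 0.049 in WT. Log2 fold changes of Vamp2, Stx1a, Cplx1 and Cplx2 lay between −0.038 and 0.053 in both genotypes.

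At the active zone, the very large scaffold proteins Bassoon (Bsn) and Piccolo (Pclo), the ELKS proteins (Erc1, Erc2) and RIMs (Rims1, Rims2) place vesicles and calcium channels, Munc13 proteins (Unc13a, Unc13c) prime vesicles, and the small GTPase Rab3A (Rab3a) sits on the vesicle. Bsn stood at 20.5, 22.5, 21.6, 23.3 and 20.7 RPKM in WT libraries after CSDS, against 26.8, 28.5, 28.4, 27.2 and 25.6 RPKM in WT controls. The WT groups did not overlap, and the log2 fold change was −0.32 ± 0.042 (limma adjusted p = 0.00104). In knockout-labelled libraries Bsn stood at 20.2, 20.5, 22.97, 24.3 and 21.002 RPKM after CSDS, against 27.6, 26.9, 28.6, 28.6 and 17.99 RPKM in controls. There 4 controls were above every CSDS library and control 10 was below all of them, and the log2 fold change of −0.23 ± 0.12 did not pass (limma adjusted p = 0.219). Without control 10 of the knockout label it was −0.35 (adjusted p = 0.00328). The conflicting libraries had 27.3, 26.4 and 29.1 RPKM of Bsn in KO 10B, KO 11 and WT 9B, above every CSDS library of their genotype.

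The other 8 active zone genes did not pass after CSDS in the main fits. Rab3a stood at 147, 148, 142, 154 and 151 RPKM in knockout-labelled libraries after CSDS, against 146, 139, 135, 131 and 142 RPKM in their controls. In WT it stood at 152, 153, 156, 157 and 148 RPKM after CSDS, against 152, 146, 140.5, 152 and 141 RPKM in controls. Groups overlapped in both genotypes, with 0.10 ± 0.035 for the knockout label (limma adjusted p = 0.0874) and 0.067 ± 0.030 in WT (adjusted p = 0.132). In a joint fit of the 20 libraries Rab3a passed as higher for the knockout label (limma adjusted p = 0.0383). Rims2 stood at 11.7, 11.4, 9.94, 11.4 and 10.2 RPKM in knockout-labelled libraries after CSDS, against 10.3, 10.5, 9.67, 9.53 and 8.34 RPKM in their controls. In WT it stood at 10.3, 10.5, 10.1, 10.2 and 10.3 RPKM after CSDS, against 10.5, 10.4, 9.71, 9.97 and 9.79 RPKM in controls. Here too the groups overlapped. It gave 0.17 ± 0.065 for the knockout label (limma adjusted p = 0.105) and 0.029 ± 0.028 in WT. Rims2 also passed as higher for the knockout label in the joint fit (limma adjusted p = 0.0265). Unc13a gave −0.022 ± 0.050 for the knockout label and −0.093 ± 0.035 in WT (limma WT adjusted p = 0.0823, and 0.0424 without WT control 10). Pclo, the close relative of Bsn, gave 0.019 ± 0.075 for the knockout label and −0.029 ± 0.035 in WT. Erc1, Erc2, Rims1 and Unc13c lay between −0.065 and 0.17 over both genotypes.

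SV2 proteins (Sv2a, Sv2b) are vesicle glycoproteins needed for normal release, and vesicular glutamate transporters fill the vesicle. None of these 4 genes passed. Slc17a7, the main transporter gene of hippocampal pyramidal and granule cells, gave −0.045 ± 0.037 for the knockout label and 0.0024 ± 0.037 in WT, and Sv2a gave 0.056 ± 0.034 for the knockout label and −0.014 ± 0.031 in WT. Slc17a8, found in a set of interneurons, stood at 0.820, 1.15, 1.18, 1.26 and 0.903 RPKM in WT libraries after CSDS, against 0.608, 0.796, 1.02, 0.639 and 0.514 RPKM in WT controls. Values in knockout-labelled libraries were 0.703, 0.752, 1.001, 1.21 and 1.16 RPKM after CSDS, against 0.993, 0.819, 0.897, 1.11 and 0.880 RPKM in controls. Groups overlapped in both genotypes, at 0.013 ± 0.11 for the knockout label and 0.37 ± 0.12 in WT (limma adjusted p = 0.0518). The WT value was past the threshold under 5 of 18 alternatives, with limma adjusted p of 0.0459 with each library centred, 0.0292 with the conflicting libraries placed by title, 0.0304 in the joint fit, 0.0413 without WT CSDS 1 and 0.0188 without WT control 8. Sv2b stood at 80.7, 80.8, 77.8, 89.7 and 84.8 RPKM in knockout-labelled libraries after CSDS, against 89.6, 97.02, 86.7, 86.6 and 83.8 RPKM in their controls, with overlapping groups and −0.10 ± 0.047 (adjusted p = 0.183). In WT its log2 fold change was −0.076 ± 0.035 (limma adjusted p = 0.141), and the adjusted p was 0.0411 without WT control 8.

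Recovery of the vesicle membrane is the work of amphiphysin (Amph), which bends it, dynamin 1 (Dnm1), which cuts the neck, and synaptojanin 1 (Synj1), a lipid phosphatase that helps to shed the clathrin coat. Dnm1 stood at 178, 176, 179.5, 186 and 173 RPKM in WT libraries after CSDS, against 193, 192, 194, 194 and 185 RPKM in WT controls. The groups met at their edges, where the highest CSDS library had 185.57 RPKM and the lowest control, number 10, had 185.35 RPKM, and the log2 fold change was −0.10 ± 0.025 (limma adjusted p = 0.0145, and 0.0546 in a joint fit of the 20 libraries). In knockout-labelled libraries it stood at 169.6, 169.6, 171, 179 and 179 RPKM after CSDS, against 192, 183, 185, 185 and 159 RPKM in controls. Control 10 was again the low library there, and −0.057 ± 0.048 did not pass (limma adjusted p = 0.457), while without it the value was −0.10 (adjusted p = 0.0268). Synj1 and Amph gave log2 fold changes from −0.059 to 0.026 over both genotypes, none past the threshold.

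**Figure D3:**
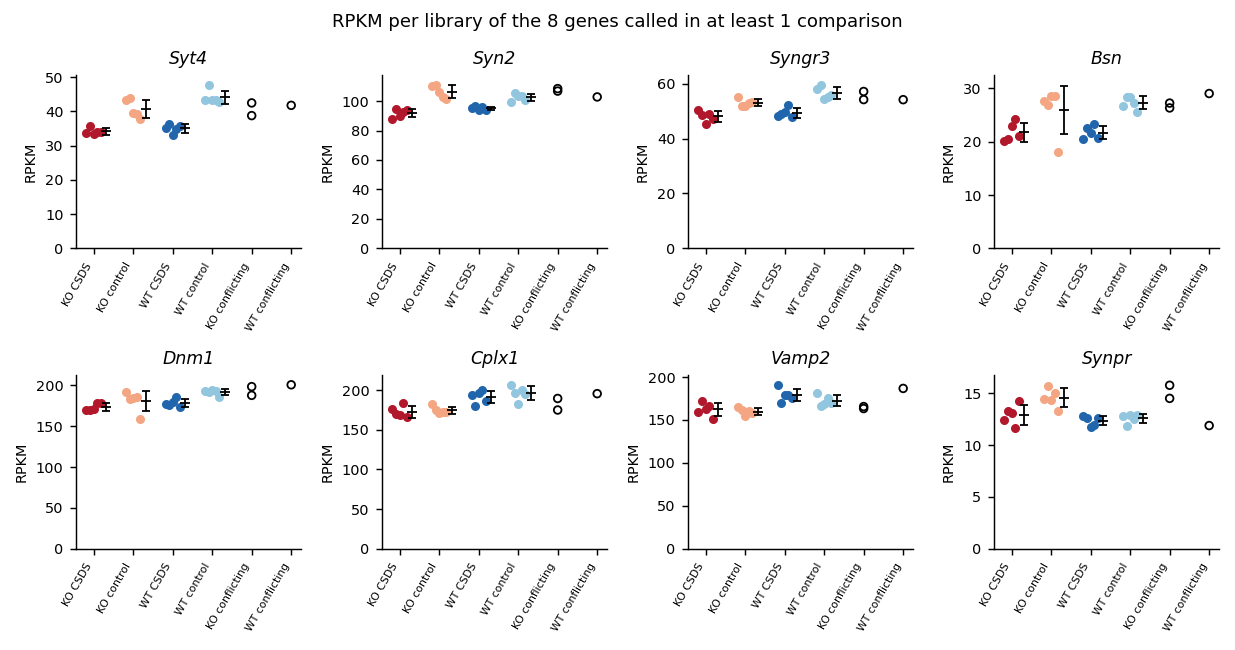
RPKM (vertical axis, from 0) of the 8 genes past the threshold in at least 1 comparison, with a point per library, the mean and SD beside each group of 5, and open circles for the 3 libraries of conflicting label, outside the groups. Syt4, Syn2 and Syngr3 show CSDS libraries below the controls of the same genotype, and Bsn and Dnm1 show a low control 10 in the knockout label.

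Upstream sequence is shown for the genes that were lower after CSDS and had an entry in the RefSeq promoter table (build GRCm38.p6, the assembly of mm10). Of the 34 genes 27 had one, and Syn3, Syngr3, Syt4, Syt7, Snap25, Vamp2 and Rims2 did not. The 250 bases before the RefSeq start are written 5′ to 3′ in the direction of the gene. The RefSeq start lay 1 base from the start of the deposited gene model for Bsn and 9 bases from it for Dnm1.
Syn2, chr6:115134652-115134901, plus strand: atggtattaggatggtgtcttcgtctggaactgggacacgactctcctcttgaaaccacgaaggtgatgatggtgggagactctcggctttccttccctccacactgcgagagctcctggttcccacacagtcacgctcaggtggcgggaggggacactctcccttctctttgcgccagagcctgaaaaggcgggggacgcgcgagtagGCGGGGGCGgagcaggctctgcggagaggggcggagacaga
Bsn, chr9:108190384-108190633, minus strand: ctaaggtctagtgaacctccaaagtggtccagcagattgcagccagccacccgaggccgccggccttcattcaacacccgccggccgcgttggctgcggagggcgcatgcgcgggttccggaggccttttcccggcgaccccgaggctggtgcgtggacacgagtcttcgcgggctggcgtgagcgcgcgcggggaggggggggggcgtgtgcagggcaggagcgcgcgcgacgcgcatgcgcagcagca
Dnm1, chr2:32353330-32353579, minus strand: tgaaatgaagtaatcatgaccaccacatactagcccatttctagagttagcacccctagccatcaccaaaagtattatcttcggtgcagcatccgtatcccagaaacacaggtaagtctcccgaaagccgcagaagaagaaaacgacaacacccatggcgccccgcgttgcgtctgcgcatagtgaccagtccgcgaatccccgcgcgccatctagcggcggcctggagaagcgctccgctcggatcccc
Capitals mark GCGGGGGCG, a form of the site bound by the early growth response (EGR) factors, which was searched on both strands together with 5 other motifs. It was found in the windows of 2 of 27 members, Syn2 and Syngr1, and in 2.57% of all 32851 windows. The cAMP response core TGACG was in 6 of 27 windows and 17.8% of all windows, and the E-box CACGTG was in 0 of 27 and 6.02%. Another EGR form, GCGTGGGCG, was in the window of Unc13a and in 0.536% of all windows. A heat shock element, GAANNTTC, was in that of Rab3a and in 6.69% of all windows. TTCAGCACC, the left part of the RE1 site of neuronal genes, was in that of Syn1 and in 0.301% of all windows. None of the 6 was in the windows of Bsn and Dnm1, which says only that these letters are not there. Member windows had a median GC content of 61.2%, against 52.4% over all windows.

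The number of members called in the knockout label changed most when its control 10 was left out. It was the lowest of the 5 controls for 24 of 34 genes and the highest for none, where over all genes with a mean of at least 0.5 RPKM it was the lowest for 24.9% and the highest for 32.1%. Summed RPKM over all genes, which is larger where short genes take more of the reads, was 461681 RPKM in that library and 425305 to 428730.0 RPKM in the other 4 controls. The 7 members with over 10000 bases of exon had a median log2 ratio of −0.26 in control 10 against the mean of the other 4, and the 27 shorter ones had −0.10. Control 10 was also the control of its label with high Xist and low Ddx3y. The parts of sex and of gene length in its values were not told apart. Without this library calls over all genes went up as well, to 20.1% of genes (9.18% higher and 10.9% lower), and 9 members (26.5%) passed, all lower: Bsn, Dnm1, Erc1, Snap25, Syn2, Syngr3, Synj1, Synpr and Syt4. With a length trend taken out of every library, 3 members (8.82%) passed, Syn2 and Syt4 lower and Vamp1 higher, beside 17.5% of all genes. Lower were 5.88% of members and 8.17% of all genes, and higher 2.94% of members and 9.31% of all genes. With both steps 6 members (17.6%) passed, Bsn, Dnm1, Syn2, Syngr3 and Syt4 lower and Vamp1 higher, beside 18.8% of all genes. Then 14.7% of members and 8.84% of all genes were lower, and 2.94% of members and 9.91% of all genes higher. In WT the summed RPKM was 434698 to 454204 RPKM after CSDS, against 421101 to 433462 RPKM in controls, and with the length trend taken out the count stayed at 5, all lower, beside 11.3% of all genes lower. Both length settings were chosen after the data were seen.

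**Figure D4:**
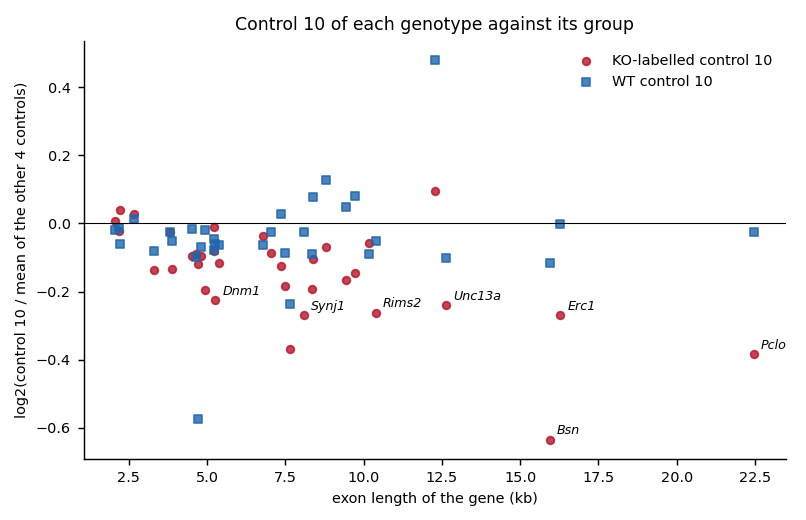
Log2 ratio of control 10 to the mean of the other 4 controls of its genotype (vertical axis) against exon length in kb (horizontal axis) for the 34 genes, knockout label in red and WT in blue. In the knockout label Bsn, at −0.63, and Pclo are the lowest of the long genes, and the WT library lies nearer 0 for them.

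Ratios of related genes within a library do not depend on the total to which the library was scaled. A length trend in a library would still move them where exon lengths differ. Syt4 has 3892 bases of exon and Syt1 8338, and Syngr3 has 2071 and Syngr1 4808. Control 10 of the knockout label had the highest of both ratios in its group, at 0.2687 for Syt4 over Syt1 and 0.7024 for Syngr3 over Syngr1. They are given as a description with no test, since the pairs were formed with the values known. Syt4 over Syt1 was 0.211 ± 0.00915 after CSDS and 0.260 ± 0.00637 in controls of the knockout label, and 0.220 ± 0.00402 after CSDS and 0.276 ± 0.0112 in WT controls (SD, n = 5 each). Syngr3 over Syngr1 was 0.597 ± 0.0151 after CSDS and 0.664 ± 0.0269 in controls of the knockout label, and 0.596 ± 0.00408 after CSDS and 0.667 ± 0.0160 in WT controls (SD, n = 5 each). For both ratios no CSDS library overlapped its controls in either genotype. Syn2 over Syn1 was 0.887 ± 0.0148 after CSDS and 1.03 ± 0.0579 in controls of the knockout label, without overlap. In WT it was 0.904 ± 0.0361 after CSDS and 0.952 ± 0.0260 in controls, with overlap (SD, n = 5 each). Bsn over Pclo was 1.43 ± 0.0868 after CSDS and 1.71 ± 0.140 in controls of the knockout label, where the groups overlapped, and 1.49 ± 0.101 after CSDS and 1.84 ± 0.0772 in WT controls, where they did not (SD, n = 5 each).

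**Figure D5:**
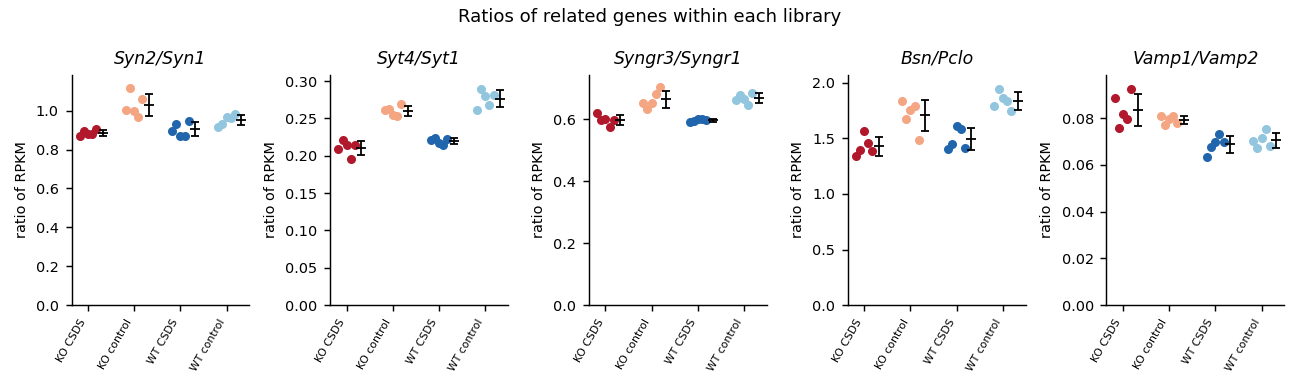
Ratio of RPKM between related genes (vertical axes, from 0) in each library of the 4 groups of 5, with the mean and SD beside each group. Syt4 over Syt1 and Syngr3 over Syngr1 lie lower after CSDS in both genotypes, and Vamp1 over Vamp2 lies higher in both groups of the knockout label than in WT.

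Other genes of the pathway, outside the 34, were counted on 4 lists. Those called after CSDS went both ways on each list, except that in WT the called active zone and Rab genes were all lower. Over all genes 6.17% were higher and 8.88% lower for the knockout label, and 9.88% higher and 12.5% lower in WT. Values are given as log2 fold changes. Among 23 other SNARE, priming and fusion genes, 4 were higher and 3 lower in libraries labelled knockout, and 4 higher and 4 lower in WT. Doc2b, a calcium sensor of spontaneous and slow release, changed by −0.42 ± 0.088 for the knockout label (limma adjusted p = 0.012) and −0.45 ± 0.066 in WT (adjusted p = 0.00165). Other synaptotagmin genes split as well: Syt13 changed by −0.14 for the knockout label and −0.19 in WT, and Syt17 by −0.20 for the knockout label and −0.15 in WT. Syt3 changed by 0.18 for the knockout label and 0.19 in WT, and these 3 genes passed in both. Rph3a, which encodes the Rab3 effector rabphilin, rose by 0.20 for the knockout label and was at −0.016 in WT, where it did not pass.

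Among 22 other active zone and Rab genes, 2 were higher and 2 lower in libraries labelled knockout, and 0 higher and 6 lower in WT. Rims4, a short RIM, changed by −0.24 ± 0.056 for the knockout label and −0.33 ± 0.062 in WT. The calcium channel subunit genes Cacna1a, Cacnb4 and Cacna1b changed by −0.17, −0.15 and −0.093 in WT (limma adjusted p = 0.0173, 0.0263 and 0.028). In libraries labelled knockout they were at −0.0066, 0.0042 and −0.0031, none past the threshold. Rab3b and the liprin gene Ppfia4 rose by 0.28 and 0.18 for the knockout label, and Rab3ip, an exchange factor of Rab GTPases, changed by −0.15.

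Among 28 other endocytosis genes, 5 were higher and 4 lower in libraries labelled knockout, and 3 higher and 10 lower in WT. The WT decreases of smallest p were in Synj2 (−0.28 ± 0.028), the intersectin genes Itsn1 (−0.17) and Itsn2 (−0.20), which encode scaffolds of the coated pit, and Hspa8 (−0.29), the chaperone that uncoats clathrin. The knockout label had Fcho2, an early pit protein, at −0.28 ± 0.048, and the adaptor genes Ap2b1 and Ap3b2 at 0.16 and 0.11, with Sh3glb2, of the endophilin B family, at 0.13. Of 24 other vesicle membrane and transmitter loading genes, 2 were higher and 1 lower in libraries labelled knockout, and 3 higher and 3 lower in WT. Slc17a6, the gene of VGLUT2, changed by −0.47 ± 0.10 in WT (limma adjusted p = 0.00801) and was at 0.25 ± 0.14 for the knockout label (adjusted p = 0.243). The GABA transporter gene Slc32a1 changed by 0.26 ± 0.060 for the knockout label (limma adjusted p = 0.0179) and was at −0.15 in WT. Scamp5, a secretory carrier membrane protein gene, rose by 0.11 for the knockout label and 0.10 in WT, and Sypl, a relative of synaptophysin, changed by −0.14 for the knockout label and −0.11 in WT. The proton pump genes Atp6ap1 and Atp6v1b2, which energise loading, rose by 0.11 and 0.089 in WT.

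Markers of cell types were read beside these results. The summed RPKM of 15 pan-neuronal genes was 1744 to 1811 after CSDS, against 1684 to 1789.85 in controls of the knockout label, and 1748 to 1873 after CSDS, against 1733 to 1888 in WT controls, with overlap in each genotype. Of these 15 genes 2 were lower and 0 higher for the knockout label, and 6 lower and 0 higher in WT. Over all genes 8.88% were lower and 6.17% higher for the knockout label, and 12.5% lower and 9.88% higher in WT. The 5 red blood cell genes summed to 559 to 2807 RPKM in WT after CSDS, against 206 to 297 RPKM in WT controls, and all 5 passed. In the knockout label they summed to 178 to 356 RPKM after CSDS, against 260 to 377 RPKM in controls, and 0 passed. The 14 endothelial, mural and meningeal genes summed to 94.9 to 110.0 RPKM after CSDS, against 122 to 157 RPKM in controls of the knockout label, where 1 was higher and 9 lower. In WT they summed to 106 to 134 RPKM after CSDS, against 95.1 to 158 RPKM in controls, with 2 higher and 2 lower. Choroid plexus genes, 10 in all, ranged from 639 to 4424 RPKM after CSDS, against 738 to 5183 RPKM in controls of the knockout label, and from 3416 to 4401 RPKM after CSDS, against 76.8 to 5741 RPKM in WT controls, and none passed. The 12 microglial genes summed to 186 to 216 RPKM after CSDS, against 199 to 230 RPKM in controls of the knockout label, and to 208 to 244 RPKM after CSDS, against 185 to 220 RPKM in WT controls. Of these 1 was lower for the knockout label and 3 were higher in WT. Higher and lower genes numbered 3 and 1 of 15 interneuron markers for the knockout label and 0 and 2 in WT. They numbered 1 and 1 of 10 dentate granule cell markers for the knockout label and 0 and 0 in WT, and 0 and 1 of 9 CA1 markers in each genotype. For 11 CA3 and CA2 markers they were 1 and 1 for the knockout label and 0 and 0 in WT, and for 12 astrocyte markers 2 and 3 for the knockout label and 3 and 1 in WT. Of 12 myelin markers 1 was lower for the knockout label and 2 in WT. Of markers of thalamus and striatum, 2 of 12 tested were higher for the knockout label and 1 of 13 tested in WT. No marker of these lists was at 0 in all libraries. Their part in the results on the release genes was not tested.

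The CSDS effects of the genotypes were then set against each other. Of 34 genes 0 passed limma's test of the difference, knockout label minus WT, where 0.148% of all genes were called, and 5 (14.7%) had an unadjusted p under 0.05, beside 11.5% of all genes. These were Syn2 at −0.10 ± 0.039 (adjusted p = 0.304), Syt2 at 0.35 ± 0.15 (adjusted p = 0.361), Syt7 at 0.12 ± 0.057 (adjusted p = 0.42), Slc17a8 at −0.36 ± 0.17 (adjusted p = 0.429) and Synpr at −0.14 ± 0.066 (adjusted p = 0.431). Bsn, called in WT alone, differed by 0.092 ± 0.13 (limma adjusted p = 0.839), and Dnm1 by 0.047 ± 0.054 (adjusted p = 0.787). Syt4 differed by 0.076 ± 0.057 and Syngr3 by 0.054 ± 0.045. The median difference of the 34 genes was 0.031, beside −0.0043 over all genes. The missed thresholds do not show that the effects of the genotypes were equal.

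Among controls, 2 of 34 genes differed between the labels, a share of 5.88% where 3.95% of all genes were called, 2.45% higher and 1.5% lower. Cplx1, the complexin of fast and inhibitory terminals among others, was lower in the knockout label. It stood at 183, 175, 171, 172 and 172 RPKM in knockout-labelled controls, against 207, 197, 183, 201 and 195 RPKM in WT controls. After CSDS it stood at 176, 169.7, 168, 183 and 166 RPKM in knockout-labelled libraries, against 194, 180.1, 196, 200.2 and 187 RPKM in WT. Control groups were barely apart, with 182.8 RPKM in the highest knockout-labelled control and 182.9 RPKM in the lowest WT control, while the CSDS groups overlapped. The log2 fold change, knockout label over WT, was −0.17 ± 0.036 among controls (limma adjusted p = 0.0138), and this call held under all 19 alternative settings. After CSDS it was −0.15 ± 0.036 (limma adjusted p = 0.0348).

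Synpr was higher in controls of the knockout label. It stood at 14.5, 15.7, 14.4, 15.01 and 13.3 RPKM in knockout-labelled controls, against 12.8, 11.9, 12.9, 12.5 and 12.9 RPKM in WT controls, without overlap, and the log2 fold change was 0.20 ± 0.047 (limma adjusted p = 0.0215). After CSDS it stood at 12.5, 13.3, 13.1, 11.6 and 14.2 RPKM in knockout-labelled libraries, against 12.8, 12.6, 11.8, 11.98 and 12.6 RPKM in WT, with overlap and 0.061 ± 0.047 (adjusted p = 0.562). The call among controls was lost without knockout-labelled control 7 or 9 or WT control 7 or 9, with adjusted p from 0.0509 to 0.0572, and with the conflicting libraries placed by treatment field (adjusted p = 0.0752). Libraries of conflicting label had 14.5 and 15.8 RPKM of Synpr in KO 10B and KO 11, against 11.9 RPKM in WT 9B. Over the same controls 3 of 15 pan-neuronal genes were lower in the knockout label and 0 higher. Of all genes 1.5% were lower there and 2.45% higher.

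After CSDS, 2 of 34 genes differed between the labels, a share of 5.88% where 2.24% of all genes were called, 1.51% higher and 0.734% lower, and both, Cplx1 and Vamp2, were lower in the knockout label. Vamp2 stood at 159.5, 172, 163, 166 and 151 RPKM in knockout-labelled libraries after CSDS, against 191, 170.3, 179, 179.6 and 176 RPKM in WT. Among controls it stood at 165, 161, 155, 160.1 and 158 RPKM in the knockout label, against 182, 166, 169, 176 and 170.3 RPKM in WT. The groups overlapped after CSDS and did not among controls. The log2 fold change was −0.14 ± 0.036 after CSDS (limma adjusted p = 0.0411) and −0.11 ± 0.036 among controls (adjusted p = 0.0941). Both calls were lost with no filter on low values (limma adjusted p = 0.0586 for Cplx1 and 0.0656 for Vamp2) and with the length trend taken out (0.117 for Cplx1 and 0.124 for Vamp2). That of Vamp2 was also lost with each library centred (adjusted p = 0.0683). The calls rest on few libraries: none passed when any 1 of the knockout-labelled CSDS libraries 1, 3 and 5 or the WT CSDS libraries 1, 3 and 4 was left out. Cplx1 alone passed without knockout-labelled CSDS 4 or WT CSDS 5, and Vamp2 alone without knockout-labelled CSDS 2. Non-overlap of the labels, as for Vamp2 and Cplx1 below and Synpr above among controls, was found for 1.77% of all genes below and 3.19% above. All 5 red blood cell genes were lower in the knockout label in this comparison, and their part was not tested.

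Other members between the labels did not pass. Vamp1 went the other way from Vamp2 in sign, at 0.13 ± 0.042 after CSDS (limma adjusted p = 0.116) and 0.055 ± 0.042 among controls (adjusted p = 0.529). The ratio of Vamp1 to Vamp2 within a library, formed with the values known, was 0.0837 ± 0.00683 in knockout-labelled and 0.0688 ± 0.00359 in WT libraries after CSDS (SD, n = 5 each). Among controls it was 0.0793 ± 0.00175 in knockout-labelled and 0.0706 ± 0.00320 in WT libraries (SD, n = 5 each), and the labels did not overlap in either condition. Slc17a7 stood at 282, 295, 293, 307 and 304 RPKM in knockout-labelled libraries after CSDS, against 313, 317, 334, 339 and 300.1 RPKM in WT, at −0.11 ± 0.036 (adjusted p = 0.12). Synj1 stood at 58.4, 60.1, 57.8, 63.8 and 60.6 RPKM in knockout-labelled libraries after CSDS, against 58.9, 58.8, 53.9, 57.1 and 58.95 RPKM in WT, at 0.064 ± 0.046 (limma adjusted p = 0.534). Neither of these passed. Unc13a stood at 26.3, 27.4, 26.9, 27.3 and 27.9 RPKM in knockout-labelled libraries after CSDS, against 24.98, 26.1, 25.1, 25.96 and 24.98 RPKM in WT, without overlap, at 0.094 ± 0.044 (adjusted p = 0.306). Syt7 also lay without overlap, at 41.9 to 44.04 RPKM in knockout-labelled and 39.7 to 41.3 RPKM in WT libraries after CSDS, at 0.087 ± 0.041 (adjusted p = 0.302). After CSDS the labels did not overlap for 2.97% of all genes above and 2.48% below. The median log2 fold change of the 34 genes was −0.038 among controls and −0.0068 after CSDS, beside 0.0076 among controls and 0.0037 after CSDS over all genes. Of the 97 other pathway genes 0 were higher and 2 lower among controls, and 4 higher and 1 lower after CSDS. Over all genes 2.45% were higher and 1.5% lower among controls, and 1.51% higher and 0.734% lower after CSDS. Syt10, a synaptotagmin gene, was lower in the knockout label in both, at −0.23 among controls (limma adjusted p = 0.0483) and −0.26 after CSDS (adjusted p = 0.0323). The liprin gene Ppfia3 was at −0.14 among controls. After CSDS Napa, of the SNARE disassembly machinery, was at 0.13, Rab3b at 0.35, Cacnb4 at 0.23 and Synj2 at 0.21.

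The authors' deposited table gives its own log2 fold changes with the sign of control over CSDS, turned round here, and its control means include the libraries of conflicting label. For the knockout label the authors' deposited table has 6 of the 34 genes (17.6%) at a false discovery rate under 0.05, near the 17.1% of all genes it tests: Syt4, Syn2, Syngr3, Synpr (−0.17, false discovery rate 0.00520), Bsn (−0.25, 0.0141) and Rims2 (0.16, 0.0314). For WT the authors' deposited table also has 6 (17.6%), beside 21.0% of all genes, namely Syt4, Syngr3, Bsn, Syn2, Slc17a8 (0.59, false discovery rate 0.00321) and Syt2 (−0.28, 0.0487), while Dnm1 is at a false discovery rate of 0.0769. Syt4, Syn2, Syngr3 and, in WT, Bsn are lower after CSDS in that table as in the limma fits.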

How the data were processed

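Hippocampal poly(A) RNA was sequenced as 75 bp single-end reads from a TruSeq V2 kit, which keeps no strand, per the labels' protocols. Reads were aligned with STAR to mm10, per the submitters' processing notes; for the STAR version, the annotation and the counter, the entry is: not given in the sources used here. The authors deposited RPKM values per library in 1 table per genotype, with 39017 genes. Per the file headers, the authors' deposited columns also hold log2 fold changes, p-values, a false discovery rate and a likelihood ratio score from edgeR. RPKM times exon length summed to 99.64 to 100.23% of the median library, in both tables.

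Depth was estimated from the steps of RPKM in 11945 single-exon genes; at that depth 93.0 to 94.1% of values were within 0.05 of a whole read. Precision is limited by 5 libraries per group. All 34 genes had the deposited coordinates in GENCODE M21, which gave exon lengths.

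Values were tested as log2(RPKM + 0.5), a scale that understates changes of low genes, for genes with a mean of at least 0.5 RPKM in the libraries fitted (all 34 passed), with limma 3.58.1 (R 4.3.3), trend, two-sided, Benjamini-Hochberg adjusted over all genes, called under 0.05. The CSDS effect was fitted in each genotype on its 10 libraries; the other 3 comparisons used all 20, across both tables. They share libraries with the CSDS comparisons. The fits were tested on simulated data. Tables and ratios were made with Python 3.11.15. The members, pathway lists and markers were chosen with earlier results of these data known. Values per library are given for genes called in any comparison and the gene of smallest p in each role group of a comparison; pathway lists name up to 4 called genes of smallest p. Alternatives were the pseudocount, the filter, centring, the place of the 3 conflicting libraries, each library left out, a joint fit, a replicate block and a length trend.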

Additional observations from a re-analysis of the deposited data

Results flagged for a closer look

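In 9 of 136 groups of 5 libraries (34 genes in 4 groups; 6.62%, where chance flags about 1 in 20) the highest or lowest library stood far from the other 4 by Dixon's test at the 95% level. Control 10 of the knockout label gave 3 of them, all low: Bsn at 17.99 RPKM against 26.87 to 28.65 RPKM in the other controls, Dnm1 at 159.46 against 183.36 to 191.52 RPKM, and Synj1 at 53.6 against 63.83 to 66.29 RPKM. Control 10 of WT was low for Dnm1, at 185.35 RPKM against 192.07 to 194.32 RPKM. Syt4 was high in knockout-labelled CSDS 2, at 35.84 RPKM against 33.26 to 33.998 RPKM, and in WT control 7, at 47.6 RPKM against 42.82 to 43.42 RPKM. Cplx1 was high in knockout-labelled control 6, at 182.76 RPKM against 171.29 to 174.55 RPKM. Pclo was high in knockout-labelled CSDS 4, at 16.71 RPKM against 14.65 to 15.13 RPKM, and Amph in WT control 9, at 81.09 RPKM against 76.08 to 77.47 RPKM.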

How the results depend on the processing

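Of members' log2 fold changes under the alternatives, 3473 kept their side of the threshold, 35 lost a call, 28 gained one and none that was called in either setting changed sign; 177 of 3285 values called in neither setting did. With the conflicting libraries placed by treatment field, members called numbered 0 for the knockout label, 2 in WT and 1 between controls, and calls over all genes 143, 1240, 399 and, for the difference of effects, 1. Placed by title, 5 members were called for the knockout label, beside 3235 of 18243 genes. Over all genes, 1627 were then called between controls and 98 for the difference. The joint fit called 7 members for the knockout label, 2 higher and 5 lower, beside 3497 of 18263 genes. The length trend with control 10 left out called 6, beside 3352 of 17874 genes. After CSDS the members that differed between labels numbered 0 with no filter, 1 with centring and 0 with the length trend removed. Over all genes the calls there were 345, 383 and 380, against 409 in the main fit. Leaving out control 10 of both genotypes gave 181 genes for the difference and 629 between labels after CSDS. The cause of each was not tested. With the length trend removed, the calls over all genes split as 1666 higher and 1461 lower for the knockout label (1126 and 1621 before) and 302 and 307 between controls (448 and 274 before); centring gave 335 and 306 between controls.

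With each library left out in turn, members called ranged from 3 to 9 for the knockout label, 5 to 7 in WT, 0 to 0 for the difference, 1 to 2 between controls and 0 to 2 between labels after CSDS. Over all genes the ranges were 1658 to 3668, 3077 to 4016, 16 to 244, 368 to 890 and 245 to 474. Counts over all genes moved by over 1.5 times for the knockout label without its CSDS 4 (1658), for the difference without knockout-labelled CSDS 1 (17) or WT control 8 (68), 9 (16) or 10 (244), between controls without knockout-labelled 7 (449) or WT 6 (373) or 9 (368), and between labels after CSDS without knockout-labelled 1 (245) or WT 1 (270).

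The labels do not say that same-numbered libraries of the genotypes belong together. Their deviations correlated at −0.107 to 0.371, with 0.21, 0.304 and 0.371 for controls 6, 8 and 10, and 5 of 10 pairs correlated best with their own number, a hint from the data and not from the design. A pair of unlike numbers reached nearly the same value. Knockout-labelled control 7 correlated at 0.369 with a WT control of another number and at −0.087 with WT control 7. With the replicate block, 0 members and 23 genes were called for the difference, 2 members and 544 genes between controls (Cplx1 and Syt4, both lower) and 2 members and 282 genes after CSDS (Cplx1 lower, Syt2 higher); Synpr between controls (adjusted p = 0.0521 by limma) and Vamp2 after CSDS (0.0779) were not called under the block. Slc17a8, near 1 RPKM, had the fewest estimated reads of the 34 genes, 178 in a median library. Its coefficient of variation, 23.5%, was the largest.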
